A study of Homo sapiens with 6 samples.

Results

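The 10 genes described here carry the integrated stress response and the unfolded protein response: ATF4, ATF3, DDIT3, DDIT4, TRIB3, ASNS, CHAC1, SESN2, HSPA5 and XBP1. They were chosen by name as genes of these pathways, and all 10 were found among the 20494 genes of the RNA-seq table. Earlier results of these data were known when these genes and the lists below were chosen. RNA came from the human line PA-1, grown from a teratocarcinoma of the ovary and expressing markers of pluripotent cells, in 6 libraries of 1 sample each. One library came from cells transfected with 8 µg of empty pCDNA3.1 vector for 48 h (Vector). Another 4 came from cells given the same amount and time of RIPK1, RIPK2, RIPK3 or RIPK4, kinases of the receptor-interacting family. The last came from cells treated with 200 ng of the ligand Wnt3a for 16 h, and no plasmid amount is given for it. It thus differs from Vector in time and in the plasmid listed as well as in agent, and these cannot be told apart. With 1 library per label there is no spread between replicates and no p-value, and every statement below compares libraries, not conditions.

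The integrated stress response begins when one of the kinases that sense amino acid shortage, double-stranded RNA, haem shortage or unfolded protein phosphorylates the initiation factor eIF2. General translation then slows, while the mRNA of the transcription factor ATF4 is translated better, and ATF4 switches on genes for amino acid supply, redox balance and, through DDIT3 (CHOP), cell death. The unfolded protein response shares the kinase PERK (EIF2AK3) with it, and adds the sensors IRE1 (ERN1), which splices XBP1 mRNA, and ATF6, both of which raise chaperones of the endoplasmic reticulum (ER) such as HSPA5. Gene-level RNA values measure neither the translation of ATF4 nor the splicing of XBP1.

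The promoters of some of these genes hold the short elements by which the pathways are known to act, and the 5 windows with a match are shown to set these elements beside the values. In RefSeq promoter windows (GRCh38.p14), the 250 bases before each annotated start were searched on both strands for the C/EBP-ATF response element (CARE, TGATGNAA) and the ER stress response element (ERSE, CCAAT and CCACG with 9 bases between them). CARE letters were present for 3 of the 10 genes, against 3.89% of 27305 genes, and lay 191 to 184 bases before the start in ATF3, 68 to 61 in ASNS and 209 to 202 in CHAC1. ERSE letters were present for 2 of the 10, against 0.0916% of genes, and lay 66 to 48 bases before the start in HSPA5 and 52 to 34 in XBP1. ATF4, DDIT3, DDIT4, TRIB3 and SESN2 had no exact match to either in the 250 bases searched. The search does not see variant letters or elements outside those bases, so a gene without a match may still hold one. ATF3, ASNS and XBP1 each have 2 windows, of which 1 holds the match and the other none, while CHAC1 and HSPA5 have 1 window each. The windows are chr1:212565157-212565406 on the plus strand for ATF3, chr7:97872409-97872658 on the minus strand for ASNS, chr15:40953221-40953470 on the plus strand for CHAC1, chr9:125241344-125241593 on the minus strand for HSPA5 and chr22:28800570-28800819 on the minus strand for XBP1. Capitals mark the matched letters, which in CHAC1 lie on the other strand. A match describes these letters and not binding, and no start used in PA-1 cells was measured.
ATF3 promoter: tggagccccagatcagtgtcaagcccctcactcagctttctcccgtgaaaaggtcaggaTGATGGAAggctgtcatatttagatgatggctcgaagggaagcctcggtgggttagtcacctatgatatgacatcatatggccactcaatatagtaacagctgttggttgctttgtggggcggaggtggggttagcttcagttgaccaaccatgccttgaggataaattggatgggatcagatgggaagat
ASNS promoter: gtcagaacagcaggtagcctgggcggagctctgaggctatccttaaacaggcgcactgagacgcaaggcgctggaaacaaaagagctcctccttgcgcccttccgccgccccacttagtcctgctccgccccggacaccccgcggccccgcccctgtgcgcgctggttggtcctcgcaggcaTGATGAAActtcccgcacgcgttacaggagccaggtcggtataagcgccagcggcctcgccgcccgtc
CHAC1 promoter: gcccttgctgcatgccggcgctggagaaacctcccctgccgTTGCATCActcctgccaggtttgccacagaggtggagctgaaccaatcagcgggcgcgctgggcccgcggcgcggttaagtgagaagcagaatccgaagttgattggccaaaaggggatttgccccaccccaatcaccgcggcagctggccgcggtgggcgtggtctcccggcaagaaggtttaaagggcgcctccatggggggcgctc
HSPA5 promoter: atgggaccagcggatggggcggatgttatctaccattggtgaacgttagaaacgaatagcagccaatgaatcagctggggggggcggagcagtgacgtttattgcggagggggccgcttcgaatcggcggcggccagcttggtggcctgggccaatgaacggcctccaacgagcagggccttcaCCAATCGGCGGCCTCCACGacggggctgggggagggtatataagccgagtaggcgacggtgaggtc
XBP1 promoter: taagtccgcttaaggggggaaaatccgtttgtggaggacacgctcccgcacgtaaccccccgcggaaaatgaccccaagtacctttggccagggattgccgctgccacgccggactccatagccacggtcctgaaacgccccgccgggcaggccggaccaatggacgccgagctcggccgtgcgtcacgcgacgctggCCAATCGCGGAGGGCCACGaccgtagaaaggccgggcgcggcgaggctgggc

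Values are RPKM, read numbers divided by gene length and library total, as the authors deposited them, with reads recovered from them where possible. Library totals recovered this way ran from 17.2 M reads for Vector to 19.5 M for RIPK1. Differences from Vector are on the log2(RPKM + 1) scale, which understates the change of low genes, while the ratios are of the RPKM values themselves. Ratios carry an exact binomial 95% interval that covers counting error alone, because reads that carry no molecular identifier may be copies of 1 molecule. In 4 of the 5 comparisons the difference from Vector followed the GC content of the transcript over 11779 genes. Spearman's rho was 0.701 for Wnt3a, 0.669 for RIPK2, 0.546 for RIPK3 and 0.672 for RIPK4, against -0.0900 for RIPK1. GC-rich genes were therefore relatively higher in those 4 libraries. Beside many of the results below, though not all, stands the difference left after the trend of all kept genes was removed. RIPK3 was at 61.4 and RIPK4 at 17.9 RPKM in their own libraries, and both were listed at 0 in Vector, where 3 reads on a gene of 2 kb would be 0.0870 RPKM. RIPK2 was 2.31-fold and RIPK1 1.30-fold above Vector in their own libraries. Of 10 markers of pluripotent cells 8 passed the filter on low values, TDGF1 was listed at 0 in every library, and NANOG lay between 0.10 and 0.23 RPKM. The summed level of these markers was 674 RPKM in Vector and 735 in RIPK1, against 522 in Wnt3a, 438 in RIPK2, 474 in RIPK3 and 614 in RIPK4. SOX2 was at 149 RPKM in Vector, 133 in RIPK1, 48.1 in Wnt3a, 63.2 in RIPK2, 68.5 in RIPK3 and 78.1 in RIPK4, and the part of this in the results below was not tested. Of 12 markers of other cell types 2 passed, PECAM1 and CD68, with a summed level of the 12 between 24.5 and 37.6 RPKM, and HBB and ALB were listed at 0 throughout.

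All 10 genes had a mean of at least 1 RPKM over the 6 libraries, as did 11881 genes in all (the kept genes). Counts past 1.5-fold or 2-fold are taken on the log2(RPKM + 1) scale, on which a gene of few RPKM can miss a size that its RPKM ratio passes. TRIB3, CHAC1 and ASNS were the genes at least 1.5-fold above Vector in the RIPK2 library. The RIPK3 library held the same 3 and DDIT4, and the RIPK4 library held TRIB3, CHAC1 and DDIT4. In the Wnt3a library the genes past this size were DDIT4 and CHAC1, with TRIB3 short of it at a difference of 0.49 though its RPKM ratio was 1.59. In the RIPK1 library there were none. No member was 1.5-fold below Vector in any library.

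These counts stand beside the share of all kept genes past the same size. Because the genes were chosen with earlier results of these data known, the shares give a scale and are not a test. For RIPK2, 3 of 10 members were at least 1.5-fold higher where 7.56% of kept genes were, and 1 of 10, TRIB3, was at least 2-fold higher where 1.59% were. For RIPK3, 4 of 10 passed 1.5-fold against 6.02%, and 0 passed 2-fold against 1.47%, with TRIB3 at a difference of 0.999 and DDIT4 at 0.97, just short of that size, though their RPKM ratios were 2.44 and 2.04. For RIPK4, 3 of 10 passed 1.5-fold against 4.92%, and 0 passed 2-fold against 0.396%. For Wnt3a, 2 of 10 passed 1.5-fold against 7.95%, and 1 of 10, DDIT4, passed 2-fold against 0.673%. For RIPK1, 0 of 10 passed either size, against 0.901% at 1.5-fold and 0.295% at 2-fold. The shares of kept genes at least 1.5-fold lower were 8.87% in Wnt3a, 6.52% in RIPK2, 3.36% in RIPK3, 3.08% in RIPK4 and 1.76% in RIPK1. At least 2-fold lower were 1.43% in Wnt3a, 0.699% in RIPK2, 0.581% in RIPK3, 0.387% in RIPK4 and 0.547% in RIPK1, and again 0 of the 10 members in each. With the GC trend removed, 2 members were at least 1.5-fold higher for RIPK2 (3.98% of kept genes), 3 for RIPK3 (3.94%), 0 for RIPK4 (1.51%), 1 for Wnt3a (2.45%) and 0 for RIPK1 (0.713%).

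The median difference of the 10 genes was 0.48 for RIPK2, 0.42 for RIPK3, 0.30 for RIPK4, 0.20 for Wnt3a and -0.13 for RIPK1. Over all kept genes the medians were -0.01, 0.02, 0.05, 0.04 and 0.01 in the same order. With the GC trend removed, the members' medians were 0.21 for RIPK2, 0.30 for RIPK3, 0.21 for RIPK4, 0.10 for Wnt3a and -0.10 for RIPK1. All 5 differences use the 1 Vector library, so a value that is low or high there enters each of them.

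**Figure D1:**
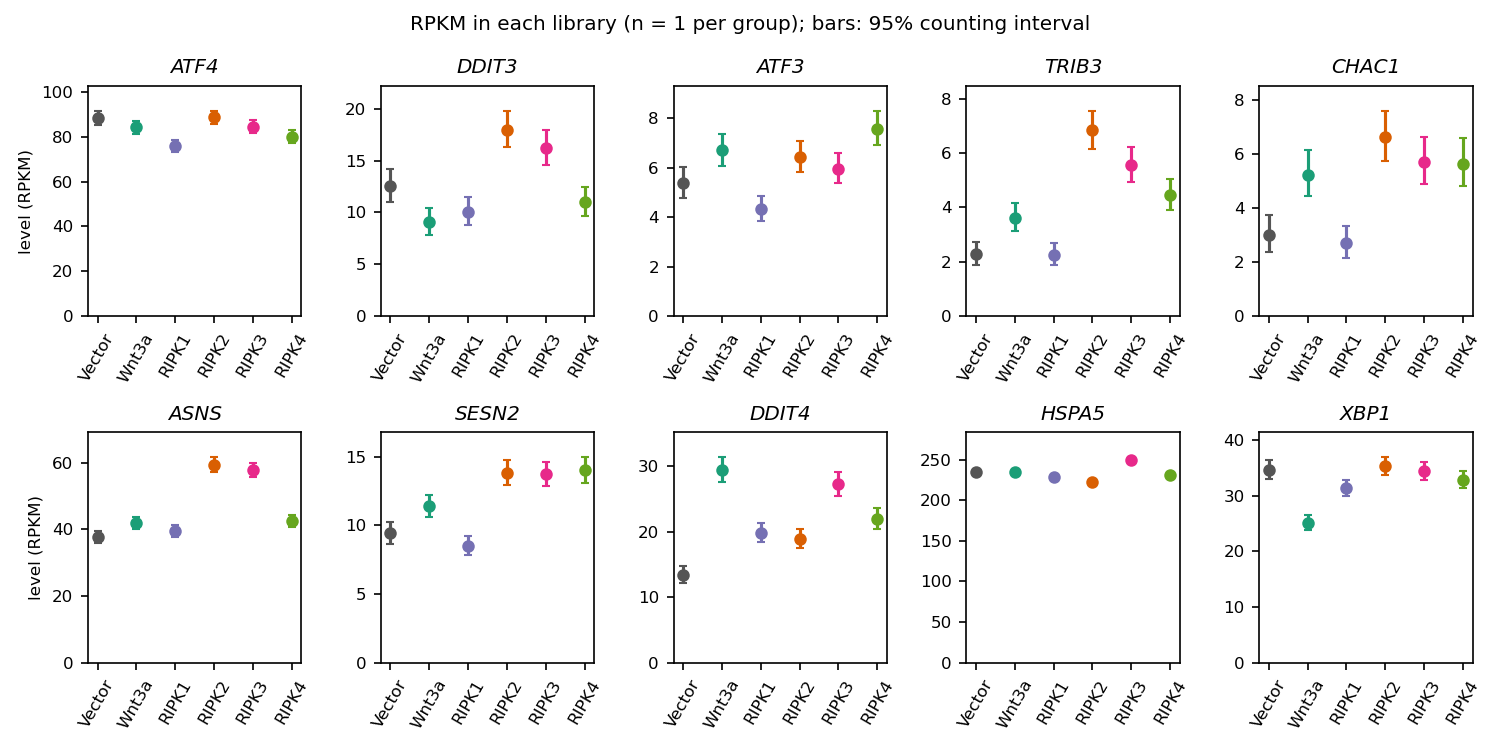
RPKM of each of the 10 genes in the 6 libraries, each panel with its own vertical axis starting at 0; bars of error are exact 95% Poisson intervals of the reads and cover counting error only. TRIB3, CHAC1 and ASNS are highest in the RIPK2 library, DDIT4 is lowest in Vector, and ATF4 and HSPA5 vary little.

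ATF4, the transcription factor at the head of the response (gene identifier 468, chromosome 22), was abundant and nearly level. Its RPKM was 88.2 in Vector, 84.2 in Wnt3a, 76.0 in RIPK1, 88.7 in RIPK2, 84.4 in RIPK3 and 80.0 in RIPK4. RIPK1 was the lowest, at 0.861 of Vector (0.820 to 0.905), and RIPK2 and Vector stood within counting error at a ratio of 1.005 (0.958 to 1.05). The RIPK2 library, in which TRIB3, CHAC1 and ASNS were highest, thus held no more ATF4 mRNA than Vector, and with the GC trend removed its ATF4 difference was -0.21.

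DDIT3, which encodes the pro-apoptotic factor CHOP (identifier 1649, chromosome 12), was at 12.5 RPKM in Vector, 9.09 in Wnt3a, 10.1 in RIPK1, 18.0 in RIPK2, 16.2 in RIPK3 and 11 in RIPK4. RIPK2 and RIPK3 were the high libraries, at 1.44-fold (1.23 to 1.69) and 1.29-fold (1.10 to 1.52) of Vector. Wnt3a and RIPK1 were low, at 0.726 (0.600 to 0.878) and 0.804 (0.670 to 0.965), while the RIPK4 interval of 0.733 to 1.05 spans equality. DDIT3 is of middling GC content, 49.7%, and its differences hardly moved with the GC trend removed, at 0.48 for RIPK2 and 0.31 for RIPK3. Its exons overlap those of MARS on the opposite strand by 355 of 1307 bases, and whether the authors' counting used strand is not given in the sources used here, so reads of the 2 genes may be shared. MARS, the methionyl-tRNA synthetase, was 1.45-fold above Vector in RIPK2, 1.34-fold in RIPK3 and 1.35-fold in Wnt3a, the last of which DDIT3 did not share.

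ATF3, a stress-induced repressor and activator of the same family (identifier 467, chromosome 1), was at 5.38 RPKM in Vector, 6.70 in Wnt3a, 4.32 in RIPK1, 6.43 in RIPK2, 5.96 in RIPK3 and 7.58 in RIPK4. Unlike DDIT3 it was highest in RIPK4, at 1.41-fold of Vector (1.22 to 1.63), and lowest in RIPK1, at 0.803 (0.680 to 0.948). The RIPK3 interval of 0.950 to 1.29 includes 1. Of its 2 promoter windows 1 holds the CARE letters printed above, and no library reached 1.5-fold.

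TRIB3, a pseudokinase that ATF4 and CHOP induce and that feeds back on ATF4 (identifier 57761, chromosome 20), had the largest ratio to Vector of the 10 genes. Its RPKM was 2.28 in Vector, 3.62 in Wnt3a, 2.25 in RIPK1, 6.83 in RIPK2, 5.56 in RIPK3 and 4.45 in RIPK4. Vector and RIPK1 were the low pair, with a ratio of 0.987 (0.758 to 1.28), and the other 4 libraries lay above both. The RIPK2 library was 2.99-fold above Vector (2.42 to 3.73), RIPK3 2.44-fold (1.96 to 3.05), RIPK4 1.95-fold (1.55 to 2.47) and Wnt3a 1.59-fold (1.25 to 2.02). Set against RIPK1 in place of Vector, the RIPK2 library was 3.03-fold higher (2.47 to 3.75). TRIB3 ranked 100th from the top of 11881 kept genes for RIPK2 and 192nd for RIPK4. TRIB3 transcripts are GC-rich, at 60.9%, and with the GC trend removed the difference was 0.93 for RIPK2 and 0.76 for RIPK3 but 0.40 for RIPK4 and 0.12 for Wnt3a.

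CHAC1, which breaks down glutathione and is a late ATF4 target (identifier 79094, chromosome 15), resembled TRIB3 with smaller steps. Its RPKM was 3.01 in Vector, 5.23 in Wnt3a, 2.69 in RIPK1, 6.61 in RIPK2, 5.71 in RIPK3 and 5.63 in RIPK4. Again Vector and RIPK1 were low, and the interval of their ratio, 0.650 to 1.23, includes 1. RIPK2 was 2.20-fold above Vector (1.69 to 2.88), RIPK3 1.90-fold (1.45 to 2.50), RIPK4 1.87-fold (1.42 to 2.47) and Wnt3a 1.74-fold (1.32 to 2.30). These rest on 81 reads in Vector and 199 in RIPK2, and RIPK2 over RIPK4 was 1.17 with an interval of 0.949 to 1.45. At 62.6% CHAC1 has the highest GC content of the 10, and with the trend removed its differences were 0.57 for RIPK2, 0.49 for RIPK3, 0.37 for RIPK4 and 0.24 for Wnt3a.

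ASNS, asparagine synthetase (identifier 440, chromosome 7), separated RIPK2 and RIPK3 from all other libraries. Its RPKM was 59.5 in RIPK2 and 57.8 in RIPK3, against 37.6 in Vector, 41.9 in Wnt3a, 39.5 in RIPK1 and 42.5 in RIPK4. RIPK2 was 1.58-fold (1.49 to 1.68) and RIPK3 1.54-fold (1.45 to 1.64) above Vector, while RIPK4 was 1.13-fold and Wnt3a 1.11-fold. RIPK2 was also 1.40-fold above RIPK4 (1.32 to 1.48) in a direct comparison without Vector. Between 1630 and 2882 reads stand behind each value. ASNS transcripts are GC-poor, at 47.0%, and the RIPK2 and RIPK3 differences, 0.65 and 0.61, became 0.74 and 0.64 with the GC trend removed. The TRIB3 and CHAC1 differences, by contrast, became smaller. Under median-of-ratios scaling the RIPK3 difference of ASNS was 0.57, just short of 1.5-fold. ASNS shares 1985 of 4455 exon bases with AC079781.5 on the same strand, so its reads may be split. ASNS, ATF4, HSPA5 and XBP1 also have pseudogene copies that the table does not list, so reads of these genes may be split too.

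SESN2, sestrin 2, which holds back mTORC1 when leucine is short (identifier 83667, chromosome 1), was at 9.40 RPKM in Vector, 11.4 in Wnt3a, 8.49 in RIPK1, 13.8 in RIPK2, 13.7 in RIPK3 and 14 in RIPK4. The last 3 libraries were level with each other, at 1.47-fold, 1.46-fold and 1.49-fold of Vector, each just short of 1.5-fold. With the GC trend removed the differences of these 3 libraries were 0.21, 0.28 and 0.23, and that of Wnt3a turned from 0.25 to -0.10.

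DDIT4, or REDD1, another brake on mTORC1 that stress, hypoxia and glucocorticoids induce (identifier 54541, chromosome 10), ordered the libraries differently. Its RPKM was 13.4 in Vector, 29.4 in Wnt3a, 19.8 in RIPK1, 18.9 in RIPK2, 27.2 in RIPK3 and 22 in RIPK4. Vector was the lowest library and Wnt3a the highest, at 2.20-fold (1.96 to 2.48). RIPK3 followed at 2.04-fold (1.81 to 2.29), RIPK4 at 1.64-fold, RIPK1 at 1.48-fold and RIPK2 at 1.42-fold. DDIT4 was the member that stood clearest above Vector in RIPK1, where it ranked 136th from the top, with a GC-removed difference of 0.54. For Wnt3a and RIPK3 the GC-removed differences were 0.76 and 0.78, while that of RIPK4 went from 0.68 to 0.41, short of 1.5-fold, and that of RIPK2 from 0.47 to 0.21. Its exons overlap the antisense gene DDIT4-AS1 by 847 of 2058 bases.

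**Figure D2:**
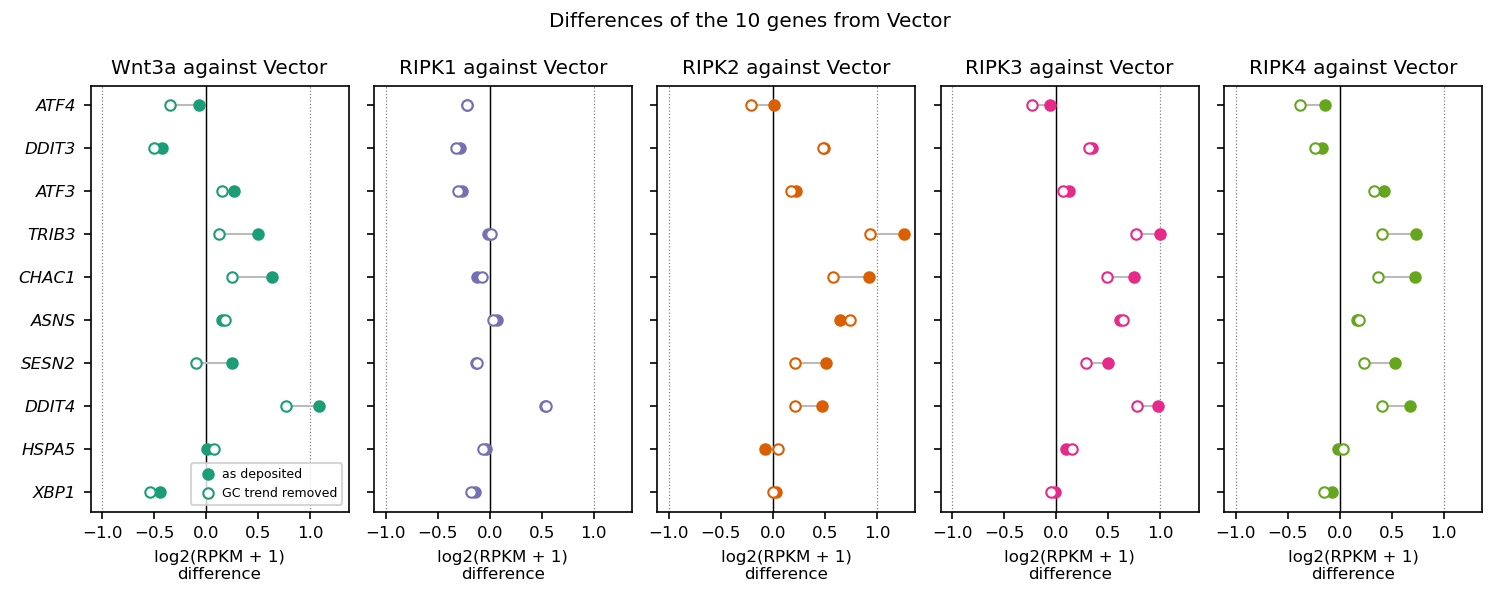
Difference from Vector in log2(RPKM + 1) for each of the 10 genes in the 5 other libraries, 1 panel a library; filled points are as deposited, open points have the GC trend removed and dotted lines mark 2-fold. RIPK2 and RIPK3 points lie to the right for TRIB3, CHAC1, ASNS and DDIT3, and Wnt3a is farthest right for DDIT4.

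In the ER arm, HSPA5 (BiP), the main ER chaperone and the usual readout of the unfolded protein response (identifier 3309, chromosome 9), was nearly constant. Its RPKM was 234 in Vector, 235 in Wnt3a, 229 in RIPK1, 222 in RIPK2, 249 in RIPK3 and 231 in RIPK4. The highest ratio to Vector was 1.06 in RIPK3 (1.04 to 1.09) and the lowest 0.948 in RIPK2 (0.927 to 0.969). Reads for HSPA5 could not be recovered exactly, and its intervals use the GENCODE transcript length. XBP1, whose spliced mRNA encodes an activator of ER chaperones and degradation (identifier 7494, chromosome 22), was at 34.7 RPKM in Vector, 25.2 in Wnt3a, 31.3 in RIPK1, 35.3 in RIPK2, 34.4 in RIPK3 and 32.9 in RIPK4. Wnt3a was the lowest library, at 0.726 of Vector (0.675 to 0.781), followed by RIPK1 at 0.904 (0.845 to 0.967), and the Wnt3a difference of -0.45 was -0.54 with the GC trend removed. HSPA5 and XBP1, each with a window that holds ERSE letters, stood at 0.948 to 1.06 of Vector in the RIPK2 and RIPK3 libraries. In the same libraries the genes with CARE letters stood at 1.11 to 2.20 of Vector. TRIB3, for which the exact search found no match in the bases searched, was 2.99-fold and 2.44-fold higher. Whether the elements had a part in these values was not tested.

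Several of the 10 genes varied alike over the 6 libraries. CHAC1 and SESN2 had a Pearson r of 0.96 in log2(RPKM + 1) over the 6 libraries, TRIB3 and CHAC1 0.95 and TRIB3 and ASNS 0.92. HSPA5 had an r between -0.06 and 0.44 with the other 9. These are descriptions of 6 libraries that also share the GC trend. Among 5651 other kept protein-coding genes with a range of at least 0.5 on that scale, the closest to TRIB3 were TRMT61A, C19orf71 and SLC5A6, at r from 0.995 to 0.997. For CHAC1 they were COMMD4, TRAF4 and PCNXL3 (0.997 to 0.9996), for SESN2 TPGS1, WIZ and MBOAT7 (0.994 to 0.999), and for ASNS IGFBP6, SFXN3 and SLC12A8 (0.993 to 0.997). TMEM43, CAV1 and DLX1 were closest to DDIT3 (0.984 to 0.997), and GXYLT2, MTMR3 and SLC31A2 to DDIT4 (0.958 to 0.982). C16orf59, PAQR4 and CSNK1G2 were closest to ATF3, HTR7, CDK2AP1 and GPR19 to XBP1, and TSSK3, SETD4 and CCNL2 to ATF4. The closest to HSPA5 was GH1, at 0.806, the lowest best likeness of the 10. GH1 was listed at 0 RPKM in Vector, Wnt3a, RIPK2 and RIPK4, at 0.874 in RIPK1 and at 17.9 in RIPK3. This r thus rests largely on the RIPK3 library.

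**Figure D3:**
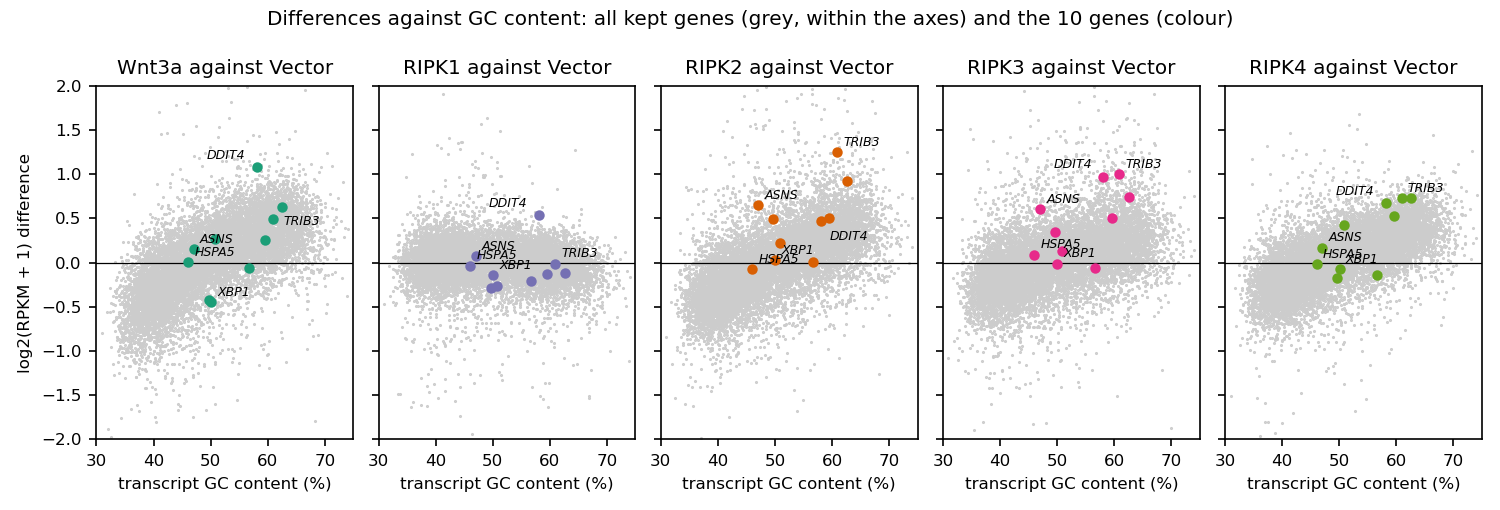
Difference from Vector in log2(RPKM + 1) against the GC content of the transcript, in percent, with 1 panel for each of the 5 libraries; grey points are the kept genes within the axes and coloured points are the 10 genes, of which TRIB3, DDIT4, ASNS, HSPA5 and XBP1 are named. TRIB3 and ASNS lie above the cloud's centre in the RIPK2 and RIPK3 panels at opposite ends of the members' GC range, and the RIPK1 cloud is nearly flat.

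Upstream of ATF4, the eIF2 kinases, the subunits and guanine nucleotide exchange factor of eIF2 and its phosphatases formed a list of 18 genes, all of which passed the filter. None was 2-fold higher in any library, and the list's medians lay between -0.05 and 0.05. PPP1R15A (GADD34), the stress-induced phosphatase subunit that restores translation, was the one gene at least 1.5-fold higher, at 9.18 RPKM in Vector against 16.0 in RIPK2 and 14.7 in RIPK3. These were 1.75-fold (1.54 to 1.98) and 1.60-fold (1.41 to 1.82), with GC-removed differences of 0.47 and 0.42. Of all kept genes 7.56% in RIPK2 and 6.02% in RIPK3 passed that size, so a count of 1 of 18 lay near the background. PPP1R15B, its constitutive counterpart, was lower in every library than in Vector, down to 0.654 of it in Wnt3a (0.605 to 0.708).

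The 4 eIF2 kinases did not move as a group. EIF2AK2 (PKR), the sensor of double-stranded RNA and an interferon-stimulated gene, was at 44.3 RPKM in Vector, 19.9 in Wnt3a, 30.8 in RIPK1, 48.1 in RIPK2, 56.7 in RIPK3 and 41.1 in RIPK4. It was therefore 2.23-fold lower in Wnt3a (2.07 to 2.40), the one gene of the list past 2-fold, where 1.43% of kept genes were as much lower. In RIPK1 it was at 0.695 of Vector and in RIPK3 1.28-fold above it (1.21 to 1.35). EIF2AK2 transcripts are GC-poor, at 40.4%. With the GC trend removed, the Wnt3a difference of EIF2AK2 went from -1.12 to -0.80, short of 2-fold. Those of RIPK2, RIPK3 and RIPK4 went from 0.12, 0.35 and -0.10 to 0.42, 0.53 and 0.10. That of RIPK1 went from -0.51 to -0.53. EIF2AK3 (PERK) was at 11.3 RPKM in Vector and 8.29 in Wnt3a, and between 10.2 and 11.2 in the kinase libraries. EIF2AK1, the haem-regulated kinase, lay between 35.8 and 41.4 RPKM over the 6 libraries, and EIF2AK4 (GCN2), the sensor of uncharged tRNA, between 11.3 and 12.9.

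Among 19 amino acid synthesis and transport targets of ATF4 other than ASNS, all of which passed the filter, 4 were at least 1.5-fold higher in RIPK2, 2 in Wnt3a, 1 in RIPK3, 1 in RIPK4 and 0 in RIPK1. The shares of all kept genes past that size were 7.56%, 7.95%, 6.02%, 4.92% and 0.901% in that order, so the Wnt3a, RIPK3 and RIPK4 counts lay near the background. The medians were 0.36 for RIPK2, 0.29 for RIPK3, 0.21 for RIPK4 and for Wnt3a, and 0.07 for RIPK1. With the GC trend removed they were 0.25, 0.27, 0.16, 0.03 and 0.05 in that order. Then 1 of the 19 genes passed 1.5-fold for RIPK2, near the 3.98% of kept genes that did. For RIPK3 2 passed, against 3.94%. SLC7A5, the light chain of the leucine carrier, was at 60.02 RPKM in Vector and 104 in RIPK2, 1.74-fold (1.68 to 1.801). SHMT2, which makes glycine in mitochondria, was 1.60-fold higher in RIPK2 and 1.52-fold in RIPK3. PHGDH, the first enzyme of serine synthesis, was 1.58-fold higher in RIPK2 and 1.53-fold in Wnt3a. PYCR1, of proline synthesis, was highest in RIPK4, at 1.69-fold. With the GC trend removed, the differences named here were all short of 1.5-fold. SLC7A5 was at 0.46 in RIPK2, and SHMT2 at 0.49 in RIPK2 and 0.45 in RIPK3. PHGDH was at 0.40 in RIPK2 and 0.30 in Wnt3a, and PYCR1 at 0.39 in RIPK4.

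Of 13 genes for aminoacyl-tRNA synthetases and tRNA export, 2 were at least 1.5-fold higher in RIPK2, 1 in RIPK3, 1 in Wnt3a and 0 in RIPK1 and RIPK4, with medians between 0.01 and 0.10. The shares of all kept genes were 7.56%, 6.02%, 7.95%, 0.901% and 4.92% in that order, so the RIPK3 and Wnt3a counts lay near the background. WARS, the tryptophan enzyme, was at 34.1 RPKM in Vector, 57.7 in RIPK2 and 57.0 in RIPK3, and between 32.1 and 37.4 in the other 3. Like ASNS it kept its size with the GC trend removed, at 0.66 and 0.64. WARS is also an interferon-induced gene. CARS was 1.54-fold higher in RIPK2, and AARS 1.62-fold in Wnt3a against 1.43-fold in RIPK2. With the GC trend removed, these differences were 0.49 for CARS, and 0.48 in Wnt3a and 0.38 in RIPK2 for AARS.

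The other targets and partners of ATF4 and CHOP held 22 genes, of which 19 passed the filter. At least 1.5-fold higher were 6 in RIPK2, 6 in RIPK3, 1 in RIPK4 and 0 in RIPK1 and Wnt3a, against 7.56%, 6.02%, 4.92%, 0.901% and 7.95% of all kept genes. With the GC trend removed the counts for RIPK2 and RIPK3 were again 6 each, against 3.98% and 3.94%. Medians were 0.39 for RIPK2, 0.38 for RIPK3, 0.12 for RIPK4, 0.07 for Wnt3a and -0.08 for RIPK1. NUPR1, a small stress-induced chromatin protein, was at 6.29 RPKM in Vector, 16.1 in RIPK2 and 12.9 in RIPK3, and between 5.27 and 6.39 in the other 3. GDF15, the stress cytokine, was 2.34-fold (1.99 to 2.76) higher in RIPK2 and 2.49-fold (2.12 to 2.93) in RIPK3, 1.60-fold (1.34 to 1.91) in RIPK4 and at 0.643 of Vector in RIPK1. SQSTM1 (p62), the autophagy receptor, was at 29.2 RPKM in Vector, 65.2 in RIPK2 and 66.3 in RIPK3, against 25.03 in RIPK1, 30.8 in Wnt3a and 39.2 in RIPK4. INHBE, an activin subunit, was low, at 0.881 RPKM in Vector and 2.45 in RIPK2. NUPR1 was thus high in the RIPK2 and RIPK3 libraries alone, whereas GDF15 and SQSTM1 were also above Vector in RIPK4. With the GC trend removed, the RIPK4 differences went from 0.63 to 0.27 for GDF15 and from 0.41 to 0.15 for SQSTM1. In RIPK2 and RIPK3 the GC-removed differences were 1.20 and 0.88 for NUPR1, 0.79 and 0.98 for GDF15, and 0.87 and 0.96 for SQSTM1. GDF15 is also a p53 target and SQSTM1 an NRF2 target.

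**Figure D4:**
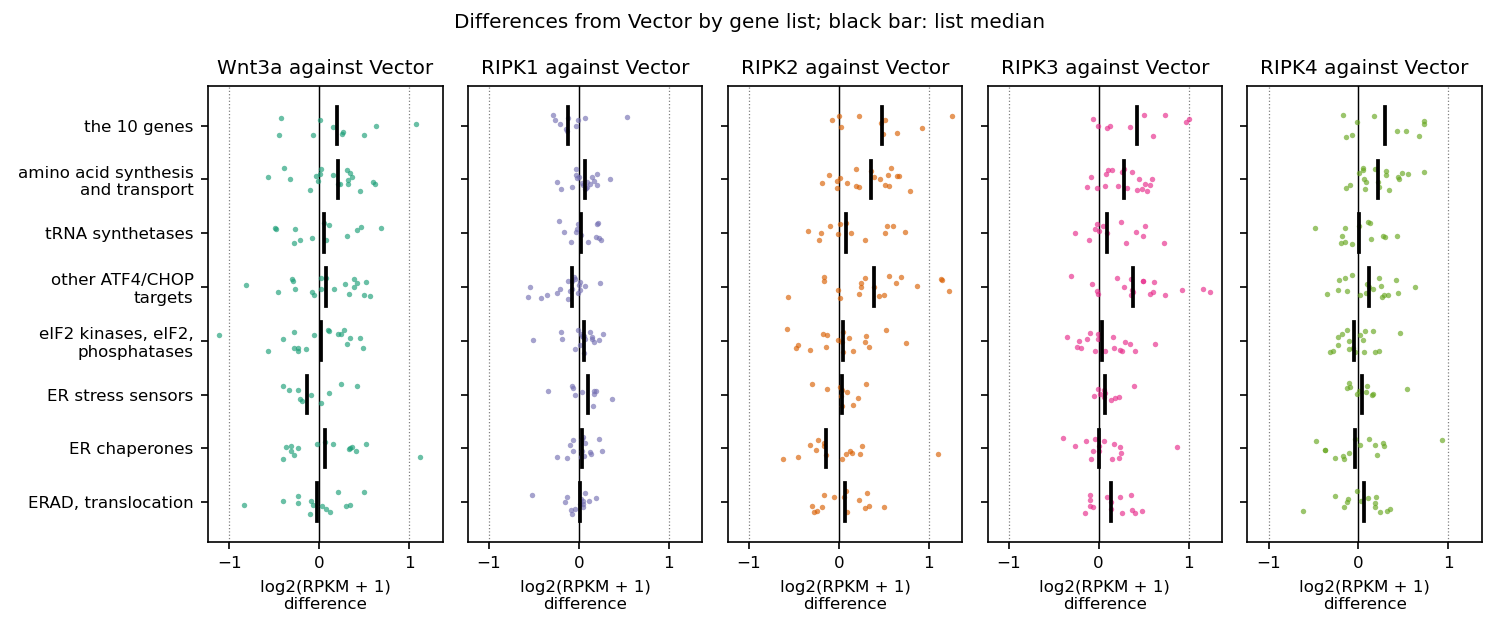
Difference from Vector in log2(RPKM + 1) of the kept genes of each list in the 5 libraries, 1 point a gene, with a black bar at the list's median and dotted lines at 2-fold. The 10 genes have their highest medians in RIPK2 and RIPK3, at 0.48 and 0.42, as do the ATF4 target lists. The medians of the tRNA synthetase list (0.08 and 0.10) and the ER-associated degradation list (0.07 and 0.13) are also highest there, but small. The ER chaperone list has medians between -0.14 and 0.06.

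The lists of the ER arm showed no common shift. Among 10 ER stress sensors and processing factors, none passed 1.5-fold on the log2(RPKM + 1) scale. ERN1 (IRE1) was scarce, at 1.07 RPKM in Vector and 1.55 to 2.003 in the other 5, and its ratio to Vector was highest in RIPK4, at 1.87 (1.40 to 2.51). ATF6 was at 10.8 RPKM in Vector and 8.65 to 11.2 elsewhere. Among 15 ER chaperones and folding enzymes the median was -0.14 in RIPK2 and 0.00 in RIPK3, and the one gene at least 1.5-fold higher was SDF2L1, a cofactor of HSPA5. This was 1 of 15 in Wnt3a, RIPK2, RIPK3 and RIPK4, where 7.95%, 7.56%, 6.02% and 4.92% of kept genes passed that size. SDF2L1 was at 15.4 RPKM in Vector, 34.7 in Wnt3a, 34.1 in RIPK2, 28.99 in RIPK3, 30.2 in RIPK4 and 18.7 in RIPK1, and its GC-removed differences ran from 0.34 to 0.72. PDIA3, a disulfide isomerase, was at 163 RPKM in Vector and 106 in RIPK2, 0.648 of it (0.629 to 0.668). CALR, calreticulin, was 1.44-fold higher in Wnt3a and at most 1.18-fold in the kinase libraries. With the GC trend removed, the PDIA3 difference in RIPK2 went from -0.62 to -0.42 and that of CALR in Wnt3a from 0.52 to 0.31. Of 14 kept genes of ER-associated degradation out of 15, none was 1.5-fold higher, and DERL2, a channel subunit, was at 0.545 of Vector in Wnt3a and 0.641 in RIPK4. The GC-removed differences of DERL2 were -0.47 in Wnt3a and -0.39 in RIPK4, short of 1.5-fold.

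Some of the 10 genes also answer to other pathways, whose lists were counted in the same way. Of all kept genes, 7.56% in RIPK2, 6.02% in RIPK3, 7.95% in Wnt3a and 0.901% in RIPK1 were at least 1.5-fold higher. With the GC trend removed these shares were 3.98%, 3.94%, 2.45% and 0.713%. At least 1.5-fold lower were 6.52% in RIPK2, 8.87% in Wnt3a and 1.76% in RIPK1. A count of 1 in RIPK2, RIPK3 or Wnt3a below lies near these shares. Of 9 kept immediate early genes out of 10, 6 were at least 1.5-fold higher in RIPK2 and 6 in RIPK3, with medians of 0.73 and 0.63. After removal of the GC trend 1 and 2 passed, and the medians were 0.47 and 0.37. In RIPK1 the same list had a median of -0.43 and 4 genes at least 1.5-fold lower. FOSL2, an AP-1 subunit, was at 2.32 RPKM in Vector, 9.03 in RIPK2 and 7.46 in RIPK3. Of 10 p53 targets 1 was 1.5-fold higher in RIPK3, 1 in RIPK1 and 0 in RIPK2, with medians of 0.18, -0.14 and 0.07. Of 9 kept hypoxia targets out of 10, 2 were at least 1.5-fold higher in RIPK2, 2 in RIPK3 and 1 in Wnt3a, and 1 was as much lower in RIPK2 and 1 in Wnt3a. The medians were -0.34, 0.13 and 0.09. With the GC trend removed, 0 were higher and 2 lower in RIPK2 and in Wnt3a, and 1 was higher and 1 lower in RIPK3. Of the 11779 kept genes with GC content, 322 in RIPK2, 447 in Wnt3a and 287 in RIPK3 were then at least 1.5-fold lower. PFKFB4 was 1.73-fold above Vector in Wnt3a and ADM was at 0.610 of it. Among 10 cytosolic heat shock genes the medians lay between -0.20 and -0.05, and HSPE1 was at 0.504 to 0.809 of Vector. CD68, a lysosomal protein used as a macrophage marker, was at 1.94 RPKM in Vector, 4.89 in RIPK2 and 4.80 in RIPK3, while the summed marker level of other cell types was 31.7 in Vector, 33.3 in RIPK2 and 37.6 in RIPK3. The part of these lists and of the GC trend in the differences of the 10 genes was not tested.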

How the data were processed

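RNA was sequenced from 6 PA-1 libraries, grouped by the transfection field of the labels, 1 for each label. The authors deposited RPKM for 20494 genes, 1 column per library without pooling, per the file headers. GSNAP, DESeq and the build hg19 are named in the submitters' processing notes. Neither their roles nor the annotation or the strand setting is given in the sources used here.

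The 11881 genes whose mean RPKM reached 1 were kept. Differences are log2(RPKM + 1) in a library minus Vector, and sizes of 2-fold and 1.5-fold are cutoffs, not tests. The transfected kinase was left out of its own library's background share. Reads were recovered as whole numbers over 1 length per gene for 11141 kept genes (93.8%) and 9 of the 10 genes described; others used the GENCODE length. The recovery was tested on simulated data. Library totals were 17.2 to 19.5 M reads. Intervals are exact binomial or Poisson, 95%, and no p-value was computed because each label has 1 library. The GC trend was a lowess (span 0.3, statsmodels 0.14.6) on transcript GC from GENCODE 29. Promoter windows are from RefSeq and matched all 10 genes. GENCODE and RefSeq are on GRCh38, a later build than the files', so they gave only lengths, GC content, overlaps and sequences.

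The named genes are the 10 members, the 4 eIF2 kinases, ERN1, ATF6, PPP1R15A, PPP1R15B, the transfected kinases, up to 4 genes of each list with the largest absolute difference, and the 3 genes most like each member. TDGF1, NANOG, HBB and ALB were named after their values were seen. The members and lists were chosen with earlier results of these data known. The alternatives were a pseudocount of 0.1, a minimum of 5 RPKM or none, median-of-ratios or upper quartile scaling, the 1.5-fold size and removal of the GC trend. Python 3.11.15, numpy 2.4.6, pandas 2.3.3 and scipy 1.17.1 were used.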

Additional observations from a re-analysis of the deposited data

How the results depend on the processing

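Leaving out the library of a label leaves no value for it, and no paired analysis was possible because each label has 1 library and the comparisons give no test. With a pseudocount of 0.1 in place of 1, the number of the 10 genes at least 2-fold higher was 2 for RIPK2 and 2 for RIPK3, against 1 and 0. With a minimum mean of 5 RPKM, which drops TRIB3 and CHAC1, it was 0 for RIPK2, and the median difference was 0.08 in place of 0.30 for RIPK4, 0.08 in place of 0.20 for Wnt3a and 0.24 in place of 0.42 for RIPK3. With the GC trend removed, the 2-fold count was 0 for RIPK2 and 0 for Wnt3a, and the RIPK2 median was 0.21 in place of 0.48. At 1.5-fold in place of 2-fold the counts were 3 for RIPK2, 4 for RIPK3, 3 for RIPK4 and 2 for Wnt3a. Of the 50 differences of single genes, 31 moved by less than their counting interval with the GC trend removed and 19 moved by more, 5 changed sign, and the largest shift was 0.39. Under median-of-ratios scaling 46 moved by less and 4 by more, with 1 change of sign, and none moved by more than its interval under the other settings. Depth limits CHAC1 and TRIB3 most, with 81 and 112 reads in Vector.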
